A study of Mus musculus with 48 samples.

Results

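Livers of Tia1 KO mice were compared between 6 and 3 months of age, with 3 arrays at each age and therefore 6 of the 48 arrays of the series. The members were defined by their labels: knock out liver at 3 months and knock out liver at 6 months. The mice carry the numbers 122970, 122972 and 122973 at both ages. Earlier results of these data were known when this comparison was chosen. The labels give C57Bl/6 as the strain of all animals, C57BL6/J in the study's methods, and no treatment is named. In the knockout, recombination at exon 4 of Tia1 leaves a shortened transcript and no TIA-1 protein, the change is carried in every cell type, and the line was bred in homozygous matings. The WT mice, 3 per age, came from a commercial breeder and not from the same litters, so that the KO and WT groups differ in breeding as well as in genotype. Livers were taken after death, hence the repeated mouse numbers were read as 6 separate KO mice. The litters are not given in the sources used here, and p-values therefore measure the spread between these animals only.

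TIA-1 is an RNA-binding protein that stalls the translation of messenger RNAs and helps to nucleate stress granules, the cytoplasmic bodies in which stalled messengers are held. Lipid and sterol synthesis in the liver follow daily cycles that depend on feeding. Cholesterol synthesis is set by the transcription factor SREBP2, fatty acid oxidation by PPAR-alpha, and the resident macrophages of the liver are the Kupffer cells.

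Expression was read on Affymetrix arrays, where each transcript is measured by a group of short oligonucleotides called a probe set. The values are log2 expression values, in which a difference of 1 is a doubling, and the array medians lay between 3.95 and 3.99. After removal of 104 controls, 45037 probe sets were tested with limma over the 12 liver arrays, KO and WT at both ages, and a change counted as called where the p adjusted by Benjamini and Hochberg's method was under 0.05. For gene lists, the brightest probe set of each of 17097 genes was used. Identity of the tissue was clear: Alb, the gene of serum albumin, was 13.1 to 13.2 on every KO array, and the summed linear level of 10 hepatocyte markers was 47028 to 50138 at 3 months and 45767 to 48532 at 6 months.

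The 3-month KO group was not uniform. Adipoq, the adiponectin gene of fat cells, was 7.01 on the array of mouse 122972 and 6.28 on that of mouse 122973, but 3.28 on that of mouse 122970 and 2.57 to 3.23 at 6 months. Acta1, the actin of skeletal muscle, was 9.75 on the 3-month array of mouse 122972 and between 2.75 and 3.12 on the other 5 KO arrays. Upk3b, a gene of the mesothelium that covers the organ, was 4.18, 4.91 and 4.68 at 3 months and 3.63, 3.47 and 2.97 at 6 months. Of 8 mesothelial markers, it was the only 1 lower on all 6-month KO arrays, and 1 was higher on all. Fat and muscle transcripts thus stood out on 1 or 2 of the 3-month arrays. Results were recomputed without both of these arrays, a comparison of 1 KO array with 3 that was chosen after the data had been seen. In whole tissue, fewer cells of a type and less RNA per cell cannot be told apart.

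**Figure D1:**
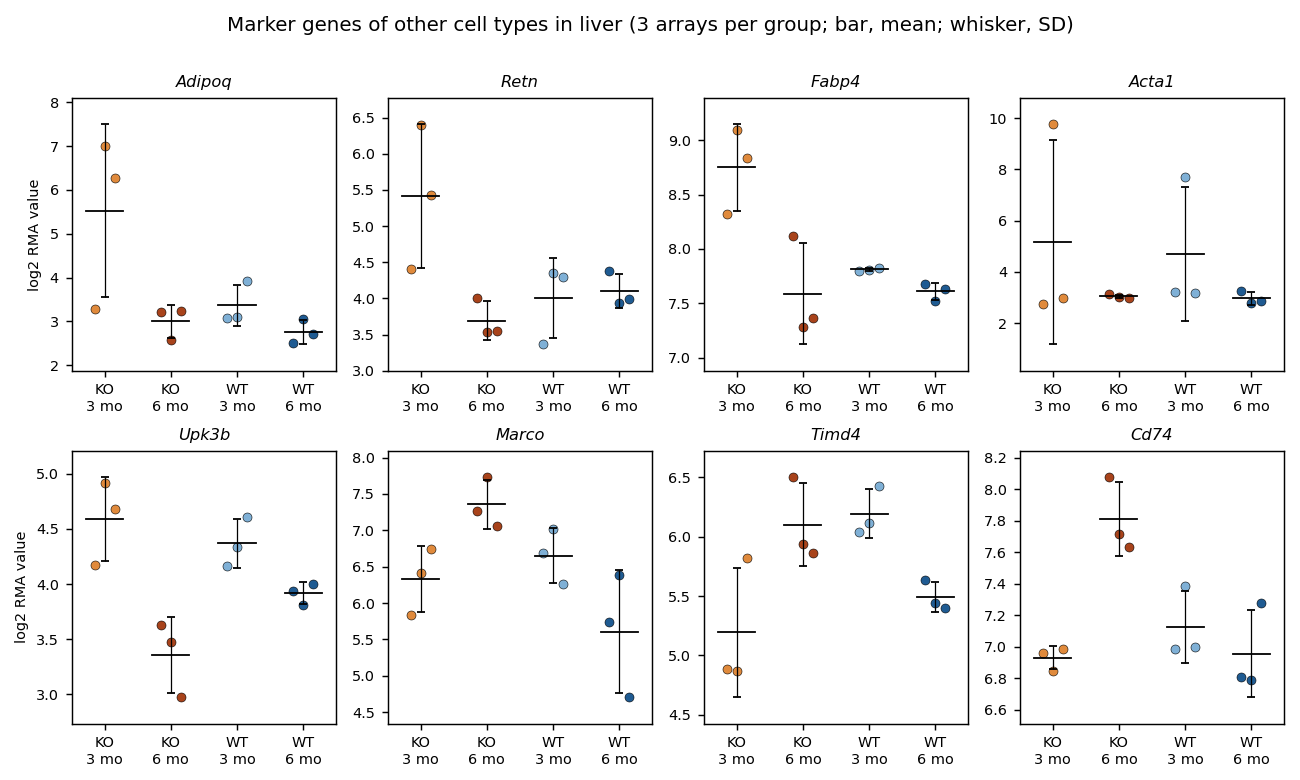
Log2 expression values of 8 marker genes of other cell types on the 12 liver arrays (points), with the mean (bar) and SD (whisker) of each group of 3. Adipoq is above 6 on 2 of the 3 KO arrays of 3 months and under 4 on every other array, Acta1 is high on 1 KO and 1 WT array of 3 months, and Marco, Timd4 and Cd74 are higher on all 6-month KO arrays than on all 3-month KO arrays.

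The knockout itself was checked on the 6 probe sets of Tia1. The probe set that the study places at exon 4 read 4.63, 4.69 and 4.76 in KO liver at 3 months and 5.26, 4.56 and 5.15 at 6 months, against 5.18 to 5.63 in WT liver over both ages, so that 1 of the 6 KO values lay within the WT range. The brightest probe set lies in later exons, so that it does not check the deletion, and read 7.58, 7.69 and 7.62 at 3 months and 7.86, 7.93 and 8.03 at 6 months in KO liver, and 6.34 to 6.64 in WT liver. With age, the 6 probe sets differed by 0.24 to 0.58 in KO liver and none passed the test (limma adjusted p between 0.252 and 0.654).

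Between 3 and 6 months, 18 probe sets fell in KO liver and 3 rose. These are 0.04 percent and 0.00666 percent of the probe sets tested, while 5123 had an unadjusted p under 0.05. The 21 probe sets hold 16 with 1 gene symbol, which name 15 genes, and on all 21 the values of the ages did not overlap. Genes of mitosis and of the extracellular matrix fell, and Cxcl13, the chemokine that attracts B cells, rose. The number of arrays limits these calls. When 1 of the 12 liver arrays was left out at a time, 2 to 39 probe sets were called, and Top2a was the only 1 of the 21 that was called each time. When the 6 KO arrays were fitted without WT liver, no probe set was called. The direction of all 21 was kept in every one of these fits, but it could not have changed. Their KO ages did not overlap, and the WT arrays do not enter the KO difference.

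Top2a, the topoisomerase that untangles chromosomes before division, had the smallest p. Its probe set read 5.17, 5.10 and 5.83 at 3 months and 3.09, 3.11 and 3.11 at 6 months, a fall of 2.26 ± 0.17 (SE, n = 3 per age; limma adjusted p = 8.84e-04), or 4.80-fold. The 6-month values were almost equal and lay under the median of the arrays. Top2a also fell in WT liver, by 1.56 (limma adjusted p = 0.00258), and the difference between the genotypes was not called (-0.71, limma adjusted p = 0.403). The other probe sets of Top2a were dim throughout and differed by -0.08 and -0.09.

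Ube2c, the ubiquitin-conjugating enzyme of the anaphase-promoting complex, read 5.07, 5.70 and 6.62 at 3 months and 3.11, 3.18 and 3.50 at 6 months. This fall of 2.54 ± 0.31 (SE, n = 3 per age; limma adjusted p = 0.0339) was the largest of the called differences, with a spread of more than 1.5 between the 3-month arrays. Ckap2, a protein of the mitotic spindle, fell by 2.01 from 4.84, 4.56 and 5.61 to 3.20, 3.37 and 2.41. Pbk, a mitotic kinase whose probe set may read related transcripts, fell by 1.81 from 5.29, 5.72 and 5.63 to 3.95, 3.98 and 3.27. Nusap1, which binds spindle microtubules, fell by 1.65 from 4.53, 4.55 and 5.21 to 2.96, 3.06 and 3.31, and its second probe set, dim on every array, differed by 0.03. The limma adjusted p was 0.0424, 0.0424 and 0.0339 for these 3 genes. With 1 array left out, Ckap2 was called in 0, Pbk in 3, Nusap1 in 2 and Ube2c in 6 of the 12 fits. Cdkn2c, an inhibitor of the cyclin-dependent kinases that start the cell cycle, fell as well, by 1.10 from 6.82, 7.25 and 7.19 to 6.20, 5.75 and 6.01 (limma adjusted p = 0.0467, called in 1 of the 12 fits).

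The wider list of S and G2/M phase genes had 30 measured members. Of these, 2 (Top2a and Nusap1) were called lower and 0 higher. On 13 members all 6-month values lay below all 3-month values, and on 2 above, against a background of 9.89 percent lower and 9.43 percent higher over all 17097 genes. The median difference was -0.41, beside -0.000541 over all genes. Mki67, the classical proliferation marker, read 4.96, 5.85 and 6.36 and then 3.93, 3.92 and 3.82, a difference of -1.83 that was not called (limma adjusted p = 0.123). Ccna2, Ccnb2 and Birc5, which encode cyclins A and B and survivin, differed by -1.99, -1.88 and -1.82 without a call. In each the 6-month values were the lower ones. The 2 members that were higher on all 6-month arrays act in DNA synthesis, and neither was called: Pcna, the sliding clamp of the DNA polymerases, differed by 0.18 and Rrm2, a subunit of ribonucleotide reductase, by 0.47. Mcm5 and Mcm6, subunits of the replicative helicase, differed by -0.46 and -0.45. In WT liver the list had a median of -0.44, with 18 members lower and 2 higher at 6 months, against a WT background of 9.66 percent lower and 10.5 percent higher. With 1 KO array left out the KO median ran from -0.55 to -0.33, and it was -0.48 without the arrays high in fat transcripts.

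Promoters are shown for 3 members of this list, Top2a, Ccnb2 and Mki67, and for Ube2c, a called mitotic gene outside it, because many of them share letters that the choice of the genes did not use. The windows are from RefSeq (GRCm38.p6), 250 bases before to 50 after the transcription start, and 24 of the 30 genes of the list matched with 25 windows. The motifs searched on both strands were CCAAT, the letters bound by NF-Y, and TTTGAA, the letters of the cell cycle homology region. Capitals mark both motifs and their reverse complements; neighbouring CCAAT matches on opposite strands can overlap, as once in Ube2c.
Top2a (chr11:99024140-99024439, minus strand): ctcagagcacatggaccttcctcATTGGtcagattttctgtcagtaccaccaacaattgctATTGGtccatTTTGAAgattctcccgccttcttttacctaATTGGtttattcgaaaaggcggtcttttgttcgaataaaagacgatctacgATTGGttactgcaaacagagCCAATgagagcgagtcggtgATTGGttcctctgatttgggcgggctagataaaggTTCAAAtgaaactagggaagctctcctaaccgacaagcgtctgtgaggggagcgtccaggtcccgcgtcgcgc
Ube2c (chr2:164769679-164769978, plus strand): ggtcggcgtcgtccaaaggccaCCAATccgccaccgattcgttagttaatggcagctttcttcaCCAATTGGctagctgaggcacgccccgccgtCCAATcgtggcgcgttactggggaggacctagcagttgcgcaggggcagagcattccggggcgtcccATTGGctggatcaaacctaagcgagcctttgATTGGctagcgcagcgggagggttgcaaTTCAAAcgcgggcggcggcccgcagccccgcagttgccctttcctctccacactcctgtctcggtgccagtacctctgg
Ccnb2 (chr9:70421505-70421804, minus strand): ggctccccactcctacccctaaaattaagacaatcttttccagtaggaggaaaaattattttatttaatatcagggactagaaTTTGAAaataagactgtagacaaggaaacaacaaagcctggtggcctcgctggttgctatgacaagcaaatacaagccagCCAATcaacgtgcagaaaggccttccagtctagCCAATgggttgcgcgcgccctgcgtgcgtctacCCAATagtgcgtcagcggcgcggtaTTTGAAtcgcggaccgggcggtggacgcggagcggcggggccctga
Mki67 (chr7:135716330-135716629, minus strand): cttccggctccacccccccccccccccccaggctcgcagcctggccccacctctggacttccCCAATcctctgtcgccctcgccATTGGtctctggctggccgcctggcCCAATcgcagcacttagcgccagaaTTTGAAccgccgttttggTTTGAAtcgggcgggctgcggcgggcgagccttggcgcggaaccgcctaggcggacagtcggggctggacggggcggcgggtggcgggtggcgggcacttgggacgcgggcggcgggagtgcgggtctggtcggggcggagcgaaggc
Of the 25 windows of the list, 20 (80.0 percent) held CCAAT and 13 (52.0 percent) held TTTGAA, and all 13 held both. Over all 32851 windows the shares were 37.4 percent, 17.9 percent and 6.95 percent for both. Nusap1, the other called member, had neither motif. The genes called in KO liver, Top2a and Nusap1 included, gave 17 windows for 12 genes, several of them for Klhl13 alone. Of these windows 35.3 percent held CCAAT and 41.2 percent TTTGAA, shares in which Klhl13 weighs more than the other genes. Of 14 windows of the matrix genes described next, 42.9 percent held CCAAT and 21.4 percent TTTGAA. The Top2a window held 6 CCAAT and 2 TTTGAA matches, and the Ube2c window, which is not among the 25, held 6 and 1. These matches are a description of the letters only.

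Genes of the extracellular matrix formed another group at lower levels in 6-month KO liver. Sparc, a secreted glycoprotein that binds collagen, read 9.72, 9.71 and 9.56 at 3 months and 8.95, 8.61 and 8.62 at 6 months. It fell by 0.94 ± 0.12 on this probe set and by 0.99 ± 0.13 on the other (SE, n = 3 per age; limma adjusted p = 0.0339 for both). Col1a1, the main chain of type I collagen, fell by 1.09 from 4.27, 4.36 and 3.94 to 3.25, 2.93 and 3.11 (limma adjusted p = 0.0424), near the dim end of the arrays. Fstl1, a secreted follistatin-like glycoprotein, fell by 1.30 ± 0.15 from 6.15, 6.06 and 5.87 to 4.72, 4.94 and 4.50 (SE, n = 3 per age; limma adjusted p = 0.0261). The second probe set of Fstl1 differed by -0.91 without a call. In WT liver Fstl1 differed by -0.03 and Sparc by -0.52, and neither difference between the genotypes was called (limma adjusted p = 0.0911 and 0.506). Podxl, a sialomucin of the endothelial surface, fell by 1.37 from 6.50, 6.43 and 5.68 to 4.81, 4.70 and 4.99 (limma adjusted p = 0.0424), while WT liver differed by 0.26, and a dim second probe set of Podxl differed by 0.09. With 1 array left out, Fstl1 was called in 8, Sparc in 3, Col1a1 in 2 and Podxl in 2 of the 12 fits.

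The list of collagens and matrix genes had 23 measured members, of which 2 were called lower and 0 higher. On 15 members all 6-month values were the lower ones and on 0 the higher ones, against the background of 9.89 percent and 9.43 percent. The median was -0.66 in KO liver and -0.08 in WT liver. There 7 members were lower and 1 higher at 6 months, against a WT background of 9.66 percent and 10.5 percent. With all probe sets of each gene in use, the KO median was smaller, -0.45, with 14 members lower and 0 higher. Col3a1, the fibrillar collagen of reticular fibres, read 9.83, 9.26 and 9.57 and then 8.39, 7.90 and 7.59 (-1.59, limma adjusted p = 0.0599). Col5a2 differed by -1.36, Mmp2, a matrix metalloproteinase, by -1.10 and Col4a2, a chain of basement membrane collagen, by -0.88. None of these 4 passed the test, although their ages did not overlap. For Col4a2 the WT difference of -1.01 was called (limma adjusted p = 0.0498). The interaction with genotype was called for 0 of the 23.

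Markers of other cell types were also compared between the ages. Over all genes, 9.89 percent were lower and 9.43 percent higher on all 6-month KO arrays. Of 12 stellate cell and fibroblast markers, 4 were lower on all 6-month KO arrays and 0 higher, all 4 of them (Col1a1, Col1a2, Col3a1 and Lum) also in the matrix list. Their summed linear level was 4413 to 4848 at 3 months and 3784 to 4597 at 6 months. Of 12 endothelial markers, 3 (Pecam1, Kdr and Tek) were lower on all 6-month arrays and 1 higher, none was called, and the summed level was 3835 to 3889 at 3 months and 3106 to 3728 at 6 months, without overlap. Of 5 erythroid markers 2 were lower and 0 higher, with sums of 8245 to 9701 and 5579 to 7237, again without overlap. Of 7 adipocyte markers, 5 were lower on all 6-month KO arrays and 0 higher. Their summed linear level was 4773 to 5482 at 3 months and 4244 to 4729 at 6 months in KO liver. The 4773 was on the array of mouse 122970, where Adipoq was low. In 3-month WT liver, where Adipoq was low as well, the sum was 4593 to 4961, so that it does not follow fat cells alone. Of 8 mesothelial markers, a list added after the data had been seen, 1 was lower on all 6-month arrays and 1 higher. This is 12.5 percent each way, near the shares over all genes. The summed level was 88.6 to 96.5 at 3 months and 67.0 to 77.6 at 6 months. The 10 skeletal muscle markers were summed at 86.6 to 3826 at 3 months, the highest on the array of mouse 122972, and at 88.9 to 106 at 6 months. Without both arrays high in fat transcripts, the matrix list kept a median of -0.64, while that of the adipocyte list went from -0.81 to -0.28. Fstl1 then differed by -1.42, Sparc by -1.15 on the dimmer probe set, Podxl by -1.67 and Col1a1 by -1.17, and of the 21 called probe sets only Top2a was still called (-2.07, limma adjusted p = 0.00564). Their part in the remaining differences was not tested.

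Further genes fell outside these groups. Clec2h, a C-type lectin-like gene, read 7.63, 7.71 and 7.66 at 3 months and 6.68, 6.61 and 6.47 at 6 months, a fall of 1.08 ± 0.11 (SE, n = 3 per age; limma adjusted p = 0.0115). It was called in 10 of the 12 fits without 1 array, after Top2a the steadiest of the 21. Its other probe sets differed by -0.58 and -1.31 without a call, and WT liver by -0.51. Sesn3, a sestrin induced under stress and fasting, fell by 1.16 from 6.82, 6.70 and 6.65 to 5.43, 5.56 and 5.68 (limma adjusted p = 0.0398), and in WT liver by 0.86 (limma adjusted p = 0.0463). The brighter probe set of Sesn3 differed by -0.51 in KO and -0.20 in WT liver without a call. Klf12, a zinc finger repressor of transcription, fell by 0.84 from 8.19, 8.18 and 8.20 to 7.50, 7.12 and 7.43 (limma adjusted p = 0.0466), with a WT difference of 0.26. Klhl13, an adaptor of a ubiquitin ligase that acts in cell division, fell by 1.30 on 1 probe set (limma adjusted p = 0.0424), but its brighter probe set differed by only -0.24. With 1 array left out, Sesn3 was called in 3 and Klf12 and Klhl13 in 2 of the 12 fits.

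**Figure D2:**
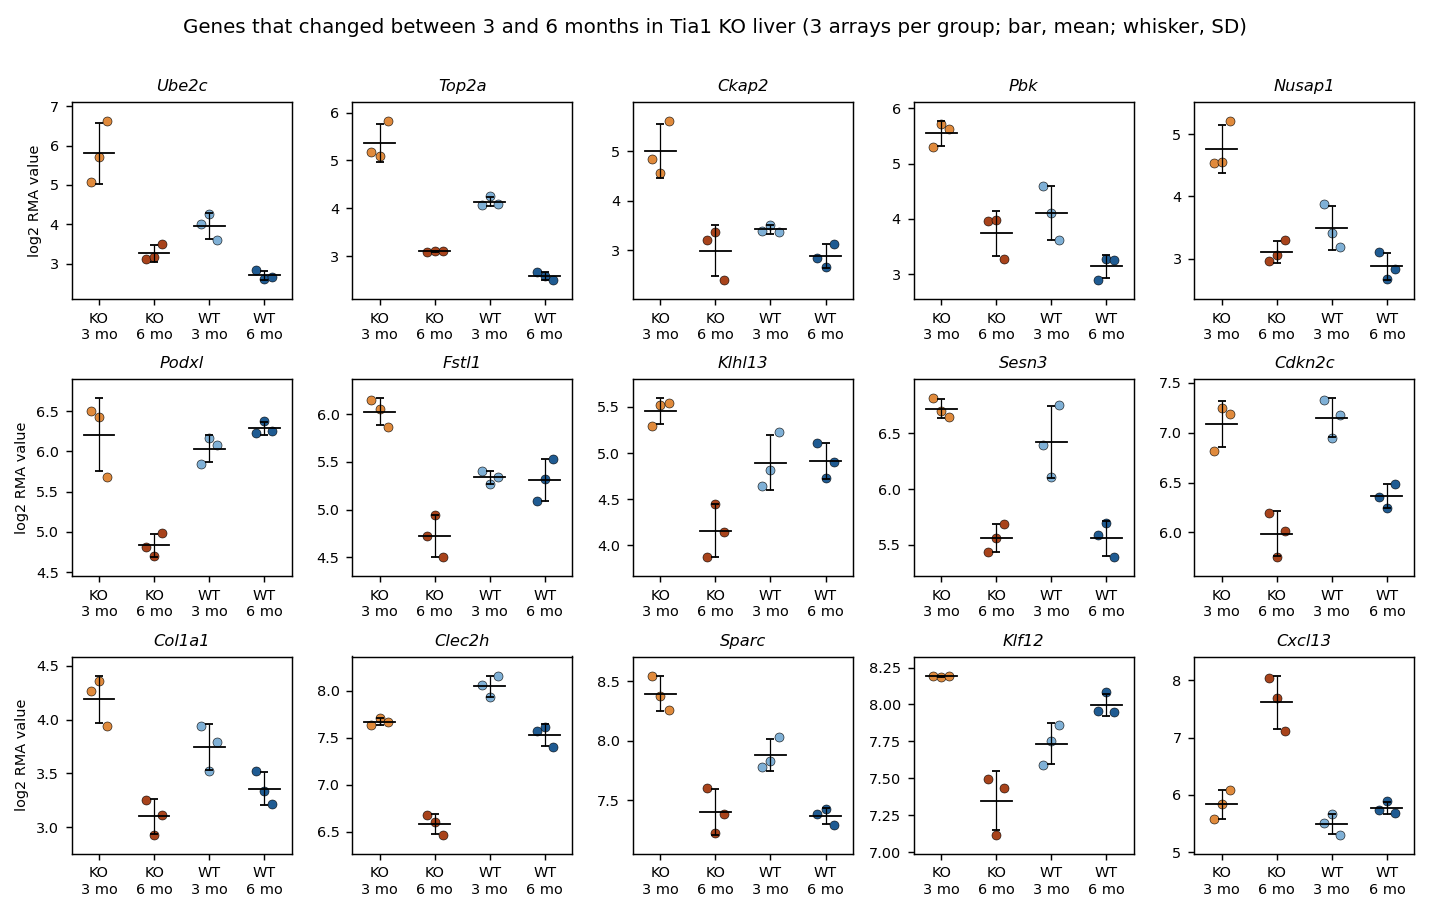
Log2 expression values of the 15 genes called between the ages in KO liver, on the 12 liver arrays (points), with the mean (bar) and SD (whisker) of each group of 3; for Sparc the probe set with the larger difference is shown. In all 15 panels the KO points of 3 and 6 months do not overlap, and Cxcl13 is the one gene that is higher at 6 months.

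Cxcl13 was the only named gene that rose. It read 5.59, 5.83 and 6.09 at 3 months and 8.05, 7.69 and 7.12 at 6 months, a difference of 1.78 ± 0.21 (SE, n = 3 per age; limma adjusted p = 0.0336), or 3.44-fold. The second probe set read 5.45, 5.35 and 5.85 and then 8.45, 7.91 and 6.78, a difference of 2.17 that was not called (limma adjusted p = 0.0896). In WT liver Cxcl13 lay between 5.31 and 5.89 at both ages on the called probe set and differed by 0.28. On the second it lay between 4.49 and 5.79 at 3 months and between 5.65 and 6.47 at 6 months, a difference of 0.86 that was not called. The difference between the genotypes was 1.5 on the called probe set (limma adjusted p = 0.154) and 1.31 on the second (limma adjusted p = 0.547), neither of them called. Cxcl13 was called in 6 of the 12 fits without 1 array.

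Markers of macrophages and lymphocytes were also higher in 6-month KO liver on several probe sets, none of them called. Of 13 Kupffer cell and macrophage markers, 5 were higher on all 6-month arrays and 0 lower, and the median was 0.27 in KO liver but -0.42 in WT liver, where 0 were higher and 8 lower. The share over all genes was 9.43 percent higher and 9.89 percent lower in KO liver, and 10.5 percent and 9.66 percent in WT liver. Marco, a scavenger receptor, read 5.84, 6.41 and 6.75 and then 7.27, 7.73 and 7.07 (1.02, limma adjusted p = 0.339). Timd4, a phosphatidylserine receptor of resident macrophages, differed by 0.91. The summed level of the 13 was 4400 to 5187 at 3 months and 4957 to 6868 at 6 months, so that the ranges overlapped. The highest was the 6-month array of mouse 122970, and without it the median was 0.01. Cd74, the invariant chain of antigen-presenting cells, read 6.96, 6.85 and 6.98 and then 8.08, 7.72 and 7.63 (0.88, limma adjusted p = 0.0953). Among 7 B cell and plasma cell markers 2 were higher and 0 lower, with a median of 0.32, and among 13 T and natural killer cell markers 3 were higher and 1 lower, with a median of 0.19. Without the 6-month array of mouse 122970 these medians were -0.02 and 0.02. The part of these cells in the rise of Cxcl13 was not tested.

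Sterol genes lay lower at 6 months almost throughout, without a call. Of 19 measured genes of cholesterol synthesis and uptake, 18 were lower on average at 6 months in KO liver, 11 were lower on all arrays, 0 were higher on all arrays and 0 were called. The median was -0.53 in KO liver and 0.22 in WT liver, where 9 were higher and 0 lower on all 6-month arrays. Over all genes, 9.89 percent were lower and 9.43 percent higher in KO liver, and 9.66 percent and 10.5 percent in WT liver. Dhcr7, which makes cholesterol in its last step, read 9.61, 9.32 and 9.34 and then 8.79, 8.43 and 8.29 (-0.92, limma adjusted p = 0.0751). Mvk, mevalonate kinase, differed by -1.02, Sqle, squalene epoxidase, by -0.71, Idi1, isopentenyl diphosphate isomerase, by -0.68 and Mvd, which decarboxylates mevalonate diphosphate, by -0.68. Of these 5 genes, Mvd was the one whose ages overlapped. The median stayed between -0.64 and -0.41 with 1 KO array left out and was -0.69 without both arrays high in fat transcripts.

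For 1 gene of this pathway the difference between the genotypes was called. Fdft1, squalene synthase, read 9.79, 9.68 and 9.54 at 3 months and 8.97, 8.94 and 8.81 at 6 months in KO liver (-0.76, limma adjusted p = 0.0751). In WT liver it read 9.63, 9.61 and 9.80 and then 10.12, 10.52 and 10.25 (0.62, limma adjusted p = 0.0707). Both genotypes started at like levels and moved apart, and the difference of the age changes was -1.38 ± 0.18 (SE, n = 3 per group; limma adjusted p = 0.0257). It was called in 2 of the 12 fits without 1 array.

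Many sterol promoters held CCAAT. Of the 19 genes, 15 matched with 17 windows in the RefSeq table, and 15 windows (88.2 percent) held CCAAT on either strand, against 37.4 percent of all windows. None held TTTGAA. The sterol-responsive letters TCACNCCAC, searched on both strands, were in 1 of the 17 windows and in 1.24 percent of all windows. Idi1 is shown as an example, with CCAAT and its reverse complement in capitals.
Idi1 (chr13:8885356-8885655, plus strand): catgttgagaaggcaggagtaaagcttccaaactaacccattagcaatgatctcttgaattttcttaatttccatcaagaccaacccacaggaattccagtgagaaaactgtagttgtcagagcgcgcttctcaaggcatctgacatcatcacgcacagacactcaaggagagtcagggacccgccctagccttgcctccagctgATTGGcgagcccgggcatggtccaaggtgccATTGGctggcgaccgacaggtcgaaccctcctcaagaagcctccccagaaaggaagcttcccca
In this window the matches began at -45 and -14 bases from the transcription start.

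**Figure D3:**
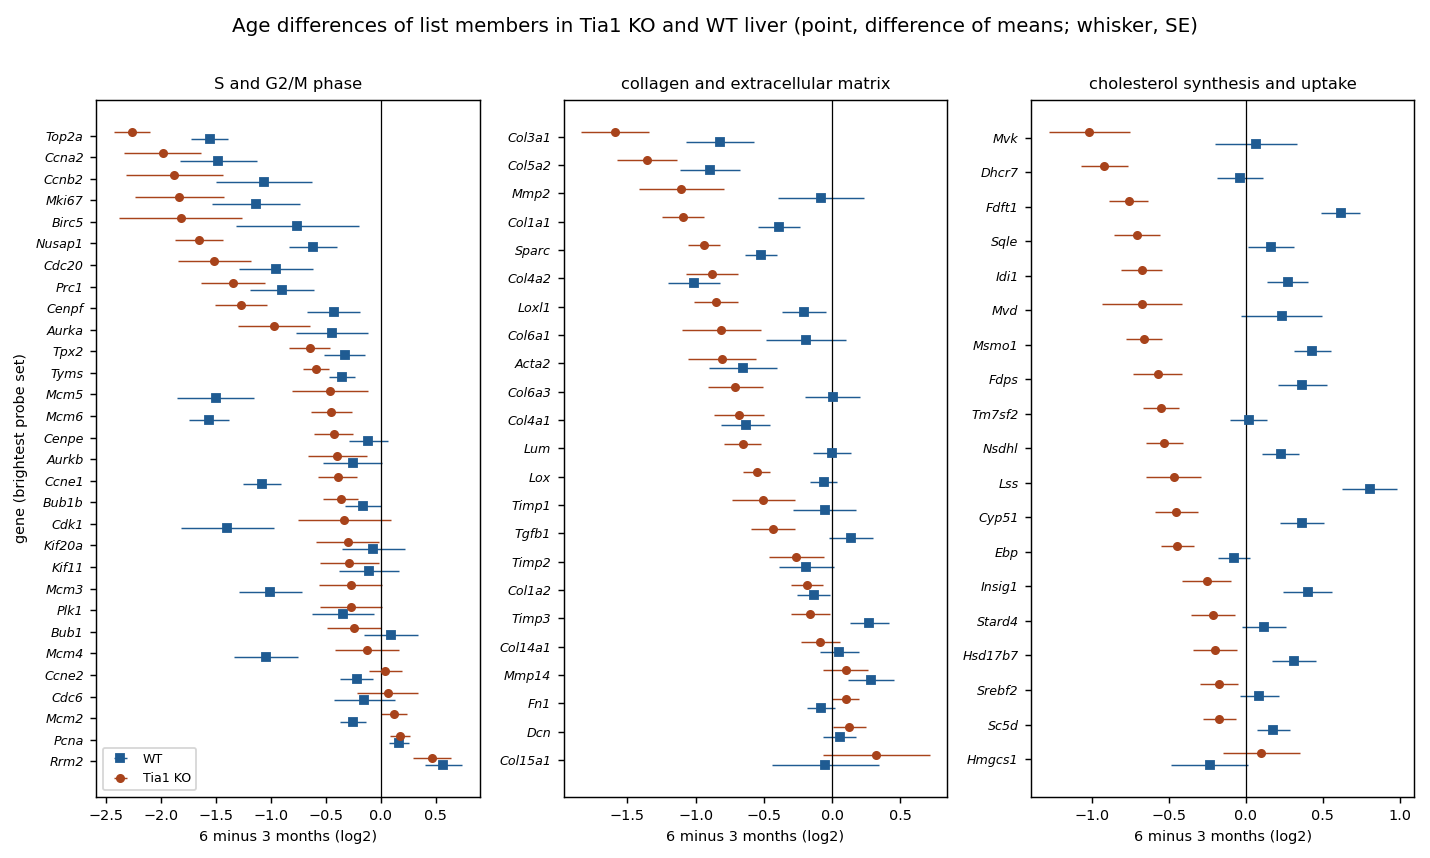
The 6 minus 3 month difference (log2) of each measured member of the cell cycle, extracellular matrix and cholesterol lists in KO (circles) and WT (squares) liver; whiskers are the SE of the limma fit, n = 3 arrays per group. The cholesterol genes lie left of 0 in KO liver, except Hmgcs1, and mostly right of 0 in WT liver, whereas most cell cycle genes lie left of 0 in both.

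Fatty acid synthesis moved less. Of 21 measured genes of fatty acid and triglyceride synthesis, 6 were lower on all 6-month arrays and 0 higher, with a median of -0.08 and 0 called. Elovl3, a fatty acid elongase, read 11.23, 10.78 and 11.02 and then 10.35, 10.61 and 10.40 (-0.56, limma adjusted p = 0.160). Acacb, an acetyl-CoA carboxylase, and Fads2, a desaturase, differed by -0.44 and -0.36. In WT liver 7 of the 21 genes were higher and 1 lower, with a median of 0.14 and 0 called. Of 27 PPAR-alpha targets and genes of fatty acid oxidation, 6 were higher and 1 lower in KO liver, with a median of 0.13 and 0 called. In WT liver 16 were higher and 0 lower, with a median of 0.36, and 3 were called higher. Over all genes, 9.43 percent were higher and 9.89 percent lower in KO liver, and 10.5 percent and 9.66 percent in WT liver. Plin4, a lipid droplet coat protein, read 5.68, 6.62 and 5.60 and then 7.26, 7.08 and 7.08 in KO liver (1.17, limma adjusted p = 0.103), and it differed by 1.02 in WT liver.

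Lipoprotein genes gave 5 lower and 1 higher of 21, with a median of -0.05, against 9.89 percent lower and 9.43 percent higher over all genes. Lpl, lipoprotein lipase, read 8.98, 9.50 and 9.18 and then 8.64, 7.84 and 7.47 (-1.24, limma adjusted p = 0.114). Lpl is also made by fat cells, whose markers were high on the arrays of mice 122972 and 122973 at 3 months. On the 3-month array of mouse 122970, where Adipoq was low, Lpl read 8.98. The part of fat cells in the Lpl difference was not tested. Apob, the structural protein of secreted lipoproteins, differed by -0.58. Of 21 genes of bile acid synthesis and transport, 3 were higher and 3 lower, or 14.3 percent each way. Cyp7a1, the rate-limiting enzyme of bile acid synthesis, read 10.95, 10.85 and 11.46 and then 10.37, 10.21 and 10.75 (-0.65, limma adjusted p = 0.309), and Abcc3, an efflux pump of the sinusoidal membrane, read 9.08, 8.97 and 8.92 and then 9.50, 9.76 and 9.77 (0.69, limma adjusted p = 0.0884).

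Of 27 drug-metabolizing oxidases, 3 were higher and 3 lower, or 11.1 percent each way, near the 9.43 percent and 9.89 percent over all genes, with a median of -0.01. Cyp2b10, the classical target of the receptor CAR, read 3.80, 2.92 and 4.79 at 3 months and 5.87, 5.16 and 5.66 at 6 months (1.72, limma adjusted p = 0.124). In WT liver it rose by 2.87 (limma adjusted p = 0.00905). Cyp1a2 read 11.73, 11.69 and 11.59 and then 11.25, 11.16 and 11.23, a difference of -0.46 that was not called.

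Acute phase and complement genes were higher on 6 of 24 members and lower on 0, with a median of 0.15 in KO liver, against 9.43 percent higher and 9.89 percent lower over all genes. In WT liver 1 was higher and 14 lower, with a median of -0.20, against 10.5 percent higher and 9.66 percent lower over all genes. Orm3 and Orm2, orosomucoids of the acute phase, had the widest spread: Orm3 read 2.63, 2.92 and 3.12 at 3 months and 6.98, 3.06 and 4.95 at 6 months, with overlapping ages. Orm2 read 6.15, 5.69 and 7.81 and then 9.25, 7.23 and 8.25. Hamp, which encodes the iron hormone hepcidin, read 11.40, 11.01 and 10.82 and then 12.03, 11.82 and 11.74 (0.79, limma adjusted p = 0.121). The 6-month array of mouse 122970 was the highest for Orm3, Orm2 and Hamp, and the list median was 0.04 without it. Of 15 genes of metal handling, Hamp included, 6 were higher and 2 lower in KO liver, with a median of 0.20. In WT liver 1 was higher and 1 lower, with a median of 0.04. With all probe sets of each gene in use, 2 were higher and 1 lower in KO liver, with a median of 0.09. Without both 3-month KO arrays high in fat transcripts the KO median was 0.06. Interferon response genes gave 3 higher and 7 lower of 27 in KO liver, with a median of -0.04, and 0 higher and 14 lower in WT liver, with a median of -0.46. Ifi27l2a, an interferon-induced gene, read 7.56, 7.41 and 8.30 and then 6.83, 5.87 and 6.54 (-1.34, limma adjusted p = 0.123), and Igtp, an interferon-inducible GTPase, read 8.06, 8.25 and 8.58 and then 8.73, 9.34 and 9.20 (0.80, limma adjusted p = 0.146).

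Respiratory chain subunits showed a small shift: 16 of 37 were lower on all 6-month KO arrays and 0 higher. The background was 9.89 percent and 9.43 percent, but the median was only -0.06 and 0 were called. In WT liver 2 were lower and 2 higher, with a median of 0.02. The KO count moved with the scaling of the arrays. Renewed quantile normalization over the liver arrays gave 11 lower and 1 higher in KO liver. Centring the arrays on their medians gave 18 lower and 1 higher there. Uqcrc1, a core subunit of complex III, differed by -0.36. Of 31 genes of stress granules and processing bodies, the first of which TIA-1 helps to build, 7 were higher and 1 lower. The median in KO liver was 0.05. In WT liver 3 were higher and 7 lower, with a median of -0.01. The KO count depended on the probe set: with all probe sets of each gene in use, 3 were higher and 2 lower in KO liver. Tardbp, which encodes TDP-43, read 7.87, 7.93 and 7.98 and then 8.33, 8.67 and 8.42 (0.55, limma adjusted p = 0.162), and Ddx6, a helicase of processing bodies, differed by -0.34. Tia1 itself, on its brightest probe set, is 1 of the 7 that were higher in KO liver. Of 16 genes induced by glucocorticoids and fasting, 0 were higher and 2 lower, or 12.5 percent, near the 9.89 percent over all genes. In WT liver 6 were higher and 2 lower, with a median of 0.40, against 10.5 percent higher and 9.66 percent lower over all genes. Tsc22d3, a direct target of the glucocorticoid receptor, read 9.61, 9.59 and 10.05 and then 9.19, 9.07 and 8.95 (-0.68, limma adjusted p = 0.189), and Sgk1, a kinase induced by the same receptor, differed by -0.55. Without the 6-month array of mouse 122970 the median of this list went from -0.06 to -0.56.

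**Figure D4:**
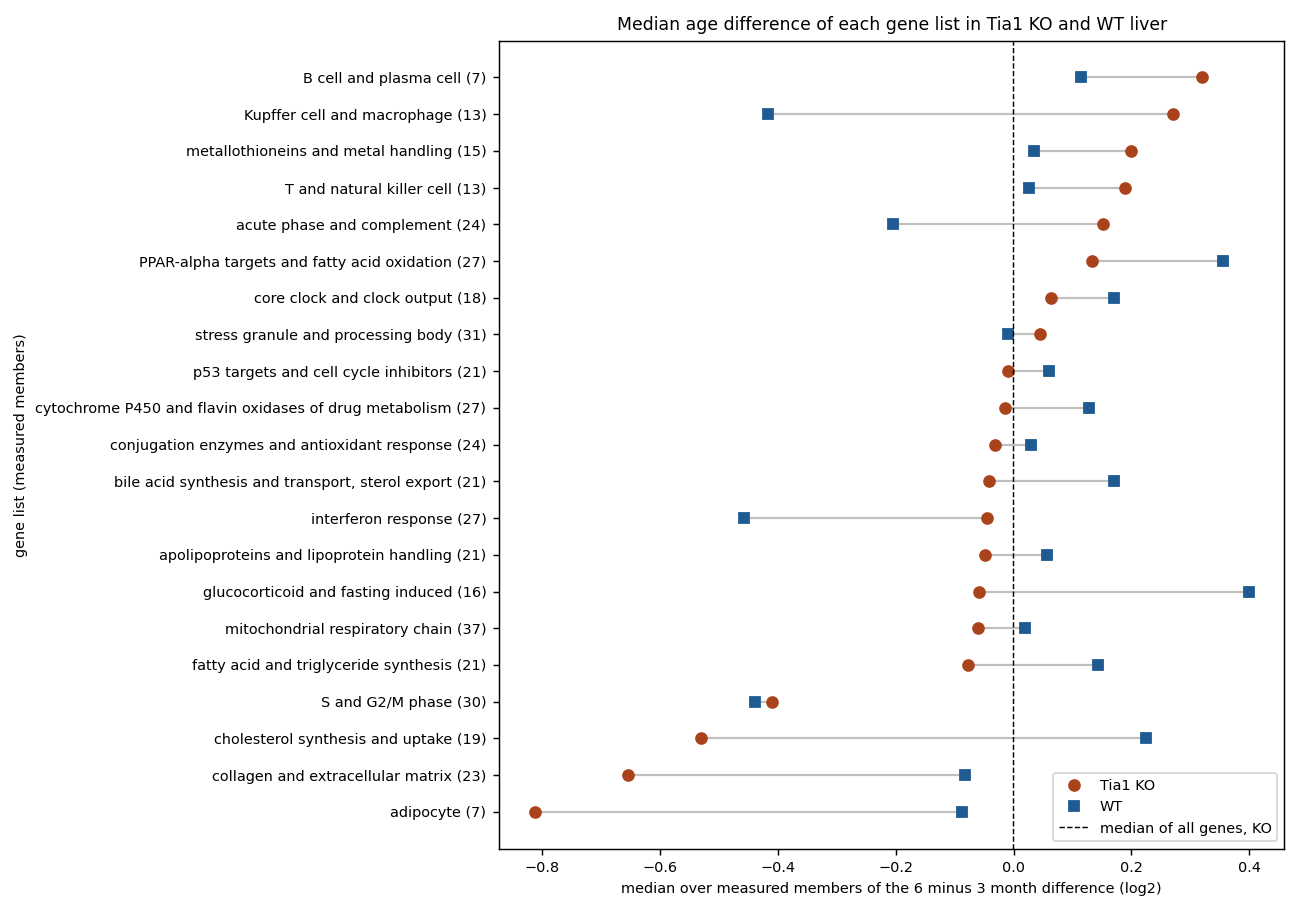
Median over the measured members of the 6 minus 3 month difference (log2) in KO (circles) and WT (squares) liver for 21 gene lists, with the number of measured members in brackets; the dashed line is the median of all genes in KO liver. Medians range from -0.81 (adipocyte) to 0.32 (B cell and plasma cell) in KO liver, and the cholesterol list is on opposite sides of the line in KO and WT.

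The question of which age changes differ between KO and WT liver was tested with the interaction of age and genotype. The difference was called for 12 probe sets lower and 3 higher in KO (0.0266 percent and 0.00666 percent of those tested), with 4018 at an unadjusted p under 0.05. None of the 15 was among the 21 called with age in KO liver. The 9 genes with the largest called differences were all called with age in WT liver (limma adjusted p at most 0.0374), and none of them in KO liver. Cyp4a10, a fatty acid hydroxylase induced by PPAR-alpha, read 10.22, 11.02 and 10.84 at 3 months and 10.95, 11.22 and 11.18 at 6 months in KO liver. In WT liver it read 7.30, 7.52 and 6.63 and then 10.95, 10.56 and 10.67, so that the outlying group was the 3-month WT one. The difference of the changes was -3.15 ± 0.35 (SE, n = 3 per group; limma adjusted p = 0.0119). This probe set may also read near-identical Cyp4a genes, so that its assignment to Cyp4a10 alone is uncertain.

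Cav1, the coat protein of caveolae, read 6.41, 6.47 and 5.99 and then 6.17, 5.60 and 5.69 in KO liver, with overlapping ages, and rose by 1.96 in WT liver. Pltp, the phospholipid transfer protein of plasma, read 7.77, 7.77 and 7.47 and then 6.99, 7.37 and 7.36 in KO liver and rose by 1.31 in WT liver. Apoa4, an apolipoprotein induced by fat feeding and fasting, read 10.07, 10.02 and 10.23 and then 9.68, 9.31 and 9.81 in KO liver and rose by 1.14 in WT liver. In the last pair of genes the KO ages did not overlap and moved against the WT direction, but neither KO change was called (limma adjusted p = 0.279 and 0.258). For Pltp the 3-month WT values of 5.94 to 6.18 lay below all other liver values. For Cav1, Pltp and Apoa4 the differences of the changes were -2.43, -1.74 and -1.65 (limma adjusted p = 0.00909, 0.0143 and 0.0320).

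Lpin2, a phosphatidate phosphatase of triglyceride synthesis, read 8.61, 9.0 and 8.87 and then 8.04, 8.05 and 8.12 in KO liver (-0.76, limma adjusted p = 0.0615) and rose by 0.67 in WT liver (limma adjusted p = 0.0374). The difference of the changes was -1.43 (limma adjusted p = 0.0167), and the other probe sets of Lpin2, both brighter, gave -1.07 and -0.94 without a call. Tspyl4, a gene of the nucleosome assembly family, read 5.76, 5.73 and 6.26 and then 6.76, 6.72 and 6.70 in KO liver and fell by 1.18 in WT liver, a difference of 1.99 (limma adjusted p = 0.0119). Saa3, a serum amyloid A of the acute phase made by macrophages, read 6.18, 6.18 and 6.86 and then 7.45, 7.44 and 7.48 in KO liver (1.05, limma adjusted p = 0.0855) and fell by 1.10 in WT liver, a difference of 2.15 (limma adjusted p = 0.0218). Saa3 and Tspyl4 were thus higher at 6 months on every KO array and lower at 6 months on every WT array. Olfm3 and the imprinted RNA Meg3 differed by -1.57 and 3.00 (limma adjusted p = 0.0167 and 0.0353). For Meg3 the KO values overlapped between the ages, 3.62 to 4.72 and 3.28 to 4.0, and the 3-month WT values of 7.03 to 7.47 stood apart. The other 9 probe sets of Meg3 gave differences of 0.24 to 2.69 without a call, and those of Olfm3, whose called probe set may read related transcripts, -1.05 and 0.12. Of these 9 genes, Cav1, Cyp4a10 and Tspyl4 were called in 11, Pltp in 10, Lpin2 and Olfm3 in 6, Apoa4 and Saa3 in 3 and Meg3 in 2 of the 12 fits without 1 array.

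**Figure D5:**
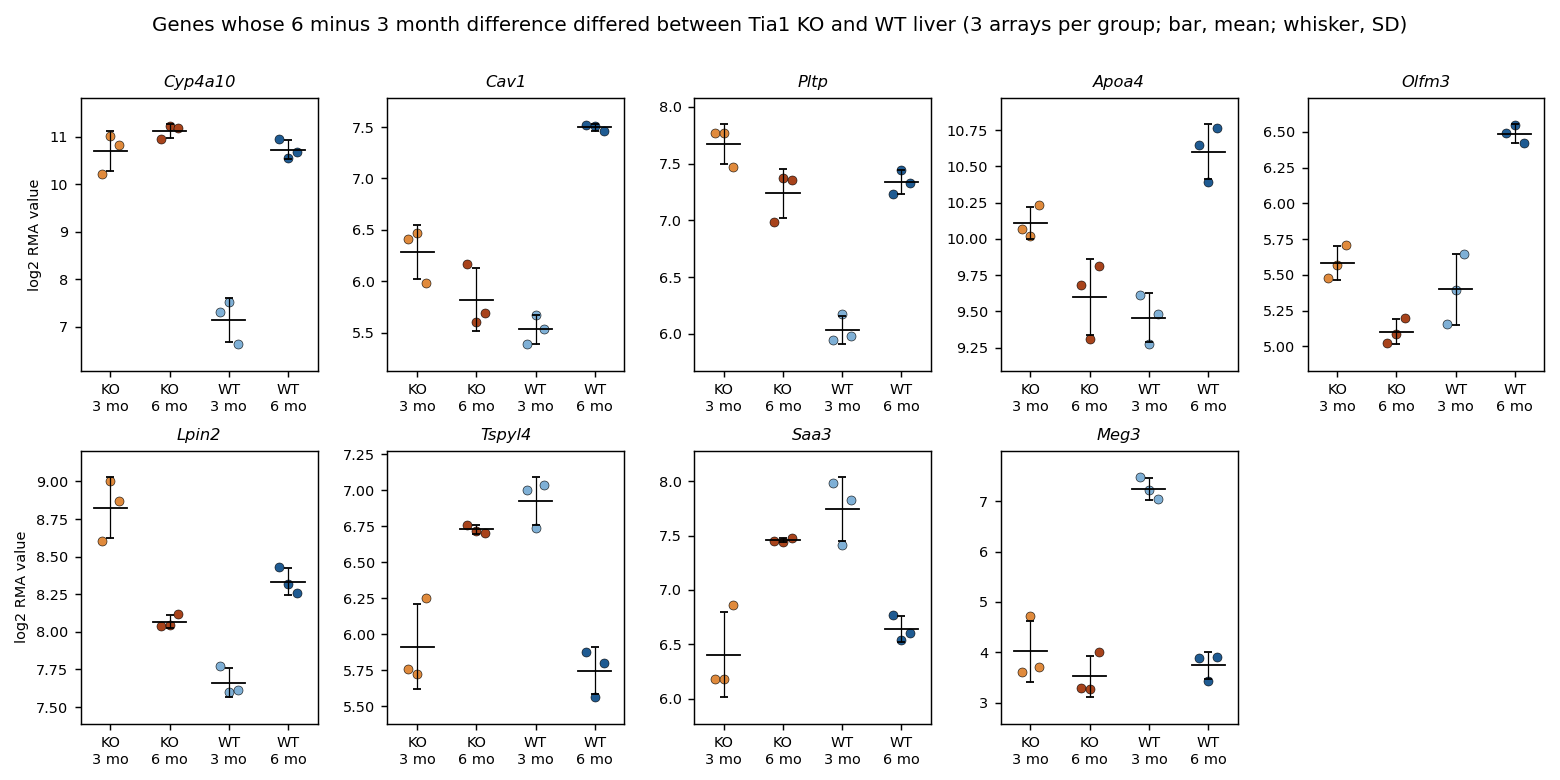
Log2 expression values of the 9 genes with the largest called difference of the age change between KO and WT liver, on the 12 liver arrays (points), with the mean (bar) and SD (whisker) of each group of 3. The KO difference is small beside the WT one for Cyp4a10, Cav1 and Meg3, whereas Lpin2, Tspyl4 and Saa3 move in opposite directions in the genotypes.

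The same mice gave spinal cord, cerebellum and midbrain, and the age change of KO liver was compared with the mean of the 3 nervous tissues in a fit of all 48 arrays. This difference was called for 211 probe sets higher in liver (0.469 percent) and 249 lower (0.553 percent). Among the 21 probe sets called in KO liver, 16 also differed from nervous tissue, a count that rests on the same 6 liver arrays. Cxcl13 differed by -0.14, 0.07 and -0.13 in spinal cord, cerebellum and midbrain of KO mice, and Sparc, on its brighter probe set, by -0.04, -0.00 and 0.02. Spinal cord was closer to liver for some mitotic genes: Top2a differed there by -1.15 and Ube2c by -1.04, against -0.27 and -0.02 in cerebellum. Nusap1 and Pbk differed in spinal cord by -0.61 and -0.48, but Ckap2 by 0.09. For Col1a1 the difference between liver and nervous tissue was not called (-0.66, limma adjusted p = 0.680), and in spinal cord Col1a1 differed by -1.07.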

How the data were processed

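RNA of liver was read on 12 arrays, 3 for Tia1 KO and 3 for WT at either age (3 and 6 months). The authors deposited log2 values, made by Robust Multichip Average (background correction, quantile normalization and a summary per probe set; R 2.14.0). These were used without change; scanner files and background flags were not used here. Of 45141 probe sets, 104 controls were left out. The platform annotation gave 1 symbol to 28898, several to 551 and none to 15588 of the rest.

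In R 4.3.3 with limma 3.58.1, group means were fitted to the 12 liver arrays (8 residual and 3.50 prior degrees of freedom), since the median within-group SD was 0.218 in liver against 0.115 to 0.133 in nervous tissues. The age contrast of KO liver and its interaction with genotype were tested, with Benjamini-Hochberg adjustment over all 45037 probe sets. Liver was compared with nervous tissue over 48 arrays with array weights per tissue. The steps were tested on simulated data. Precision is limited by how few arrays there are.

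The members and the 28 pathway and 12 cell type lists were chosen with earlier results of these data known. Named genes were the Tia1 probe sets, up to 15 called genes per direction whose ages did not overlap, up to 6 members with the largest difference of each list described, and up to 6 genes per direction with the largest interaction; the lists to describe were picked with the results in view, and the genes Pcna, Rrm2, Alb, Acta1 and Upk3b, some other list members and those outside these numbers were named after their values were seen. Same-numbered KO mice did not deviate together between the ages (r = 0.0111, -0.000600 and -0.0757), so the samples were not paired. The alternatives were other spreads, priors, weights, filters, scalings and thresholds, the block, and leaving out arrays. Promoter windows were taken from RefSeq.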

Additional observations from a re-analysis of the deposited data

Results flagged for a closer look

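For 15 probe sets the age change differed between KO and WT liver by the test of the interaction. The KO minus WT difference of the 6 minus 3 month change (log2) was -2.43 for Cav1, 1.99 for Tspyl4, -3.15 for Cyp4a10, -1.74 for Pltp, -1.43 for Lpin2, -1.57 for Olfm3, 2.15 for Saa3, -1.38 for Fdft1, -1.65 for Apoa4 and 3.00 for Meg3. Clec1a, a C-type lectin-like receptor of endothelium, differed by -1.35. Probe sets without a symbol gave -5.54, -1.79, -1.66 and -2.13.

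For 16 of the 21 probe sets called in KO liver, the age change also differed between KO liver and KO nervous tissue. Over all probe sets tested, 0.469 percent were called higher and 0.553 percent lower in liver. The 21 were chosen by the KO liver change, which is part of this difference, so that the count is no separate support. Among the genes of mitosis and its control, the liver minus nervous tissue difference (log2) was -1.79 for Top2a, -2.15 for Ube2c, -1.48 for Nusap1, -1.66 for Pbk, -1.99 for Ckap2 and -1.37 for Klhl13. Matrix and surface genes gave -0.93 and -1.01 for the probe sets of Sparc, -1.41 for Fstl1 and -1.63 for Podxl. The remaining genes gave 1.85 for Cxcl13, -1.25 for Clec2h, -0.91 for Klf12 and -1.08 for Sesn3, and probe sets without a symbol gave -0.86 and 0.95. Causes of these differences were not tested.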

How the results depend on the processing

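The sign of all 21 differences called in KO liver was kept under every alternative that tested them. Leaving out arrays or changing the spread, prior, weights or block could not turn it, since their ages did not overlap. The counts moved. With the spread pooled over all 48 arrays, 2560 probe sets were called higher and 2350 lower, against 3 and 18; the 6 KO arrays alone gave 0 and 0, a trended and robust prior 126 and 218, array weights 9 and 27, no dim probe sets 52 and 93 (fewer probe sets tested), renewed quantile normalization 7 and 19, nested F decisions 34 and 65, and an adjusted p under 0.01 0 and 1. Mouse number as a replicate block gave 0 and 0. Without both 3-month KO arrays high in fat transcripts the counts were 0 and 1. Leaving out 1 KO array gave 1 to 5 higher and 1 to 34 lower. Of the 21 calls, 4, 1 and 7 were kept without the 3-month KO arrays of mice 122970, 122972 and 122973, 13, 3 and 3 without those of 6 months, 18, 6 and 15 without WT arrays 1, 2 and 3 of 3 months, and 3, 2 and 3 without those of 6 months. For the interaction, against 3 higher and 12 lower, pooling gave 1505 and 1709, the trended and robust prior 50 and 110, no dim probe sets 7 and 21, an adjusted p under 0.01 0 and 3, the replicate block 0 and 1, leaving out both fat-rich arrays 3 and 3, and leaving out 1 of the 12 arrays 0 to 8 and 1 to 19, the lowest without WT array 3 of 6 months. For liver against nervous tissue, against 211 and 249, 1 pooled spread gave 1376 and 1303, the mouse as a random block 235 and 275, and leaving out 1 array 134 to 246 and 114 to 285, both lowest without the 6-month array of mouse 122973 (134 also without the 3-month array of mouse 122970). The replicate block changed no sign, and for the KO liver differences it could not, since it leaves them as they are. Of 159 probe sets followed, 6 uncalled ones changed sign: without the 6-month array of mouse 122970, Nfil3 read -0.23, Cd14 -0.00888 and Cd79b -0.0225 (at most 0.54, 0.52 and 0.80 without another array), and without both fat-rich arrays Nfil3 -0.27, Pdk4 0.23, Cd3g 0.13 and Ms4a1 0.26. Causes were not tested.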
